A study of Mus musculus with 6 samples.

Results

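Glycosaminoglycans are the long sugar chains that proteoglycans carry, and the 37 genes described here build, modify and supply them. They were taken as a fixed list of gene symbols covering the linker, chondroitin, heparan, sulfate supply and hyaluronan steps, out of 20972 genes that had a symbol on the array. Each gene was found through the RefSeq accession of its probes, and the probe with the highest mean signal stood for it. All 37 genes had a probe, 7 of them more than 1, and 36 passed the filter of being well above background on at least 3 of 6 arrays. The samples were tibial cartilage of C57BL/6 mice, 3 labelled control and 3 of the genotype ADAM10 flox/flox-Col2a1-Cre, called mutants here. In the mutants Cre recombinase, expressed under the Col2a1 promoter of chondrocytes, acts on floxed alleles of the membrane protease gene Adam10. The deletion is thus aimed at chondrocytes, and whether other cells of the sample carried it too was not tested. The sources used here give neither the control alleles nor the age and sex of the mice. RNA was measured on 1-colour Agilent arrays, 1 array per mouse, and the comparison asks how cartilage transcripts differ between the genotypes.

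Chondroitin and heparan sulfate chains both start on a serine of a core protein through a short linker of xylose, galactose and glucuronic acid. Polymerases then lengthen the chain from nucleotide sugars, and sulfotransferases decorate it with sulfate taken from the donor PAPS. Cartilage depends on this pathway because the dense chondroitin sulfate on aggrecan holds water in the matrix, while heparan sulfate binds growth factors and hyaluronan anchors the aggrecan aggregates. Inherited defects of several of these enzymes and of the sulfate transporter cause skeletal dysplasias.

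Values below are log2 signals relative to the 75th percentile of the same array, and differences are mutant minus control. The text gives single arrays in the order control 1, 2, 3 and mutant 1, 2, 3. Levels of different genes come from different probes and were not compared. Well above background were 62.4% to 65.4% of the spots on an array, 0 spots were saturated, and all arrays shared 1 slide. The first row of the slide held all controls and mutant 1, and the second row held mutants 2 and 3. Slide row and genotype thus cannot be fully told apart. Xist exceeded the Y-linked Ddx3y on control 1 and mutant 3 and was below it on the other 4 arrays, so both groups held both sexes. Along the first principal component, 44.5% of the variance, control 1 (-55.3) and mutant 2 (71.2) stood apart from the other arrays (-14.0 to 15.2). Adam10 was the check of the labels, and its probe read 1.61, 1.58 and 1.21 in controls and 0.15, -1.70 and 0.31 in mutants. Every mutant lay below every control, with a difference of -1.88 (SE 0.53, limma adjusted p 0.987) that was -1.24 without mutant 2, although the labels do not say whether the probe lies within the floxed part. Markers of chondrocytes and of other cells differed between arrays. Of 14 chondrocyte markers 13 were above 0 in the difference, with a median of 0.30, and their summed linear signal ran from 3243 to 3915 in controls and from 3627 to 4672 in mutants. All 13 measured macrophage markers (of 15 listed) were below 0, with sums of 33.8 to 43.4 in controls and 9.23 to 30.3 in mutants, and Cd163 was above background on 0 arrays. All 14 osteoclast markers were below 0 too, with sums of 255 to 343 in controls and 39.9 to 173 in mutants. In bulk tissue, fewer cells of a type and less RNA per cell cannot be told apart.

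The genes of glycosaminoglycan synthesis showed no difference between genotypes that passed the test. In the limma fit over 25480 features, 0 of the 36 measured members had an adjusted p below 0.05, against 0% of all features, and 0 had an unadjusted p below 0.05, against 3.43% of all features (1.55% higher and 1.88% lower in mutants). The smallest unadjusted p among them was 0.0833, for Csgalnact1. The groups were over 1.5-fold apart for 1 member, Chst13, against 5.71% of all features. Its mutant 2 array was not above background, and with normexp background correction 0 members were that far apart. Of the 36 members 28, or 77.8%, had a difference above 0, where 60.0% of all features did. The median difference was 0.15, or 0.04 over all features. The groups did not overlap for 4 members, all with mutants higher (B3gat3, Csgalnact1, Ugdh and Extl3), against 5.19% of features higher and 3.75% lower. 

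**Figure D1:**
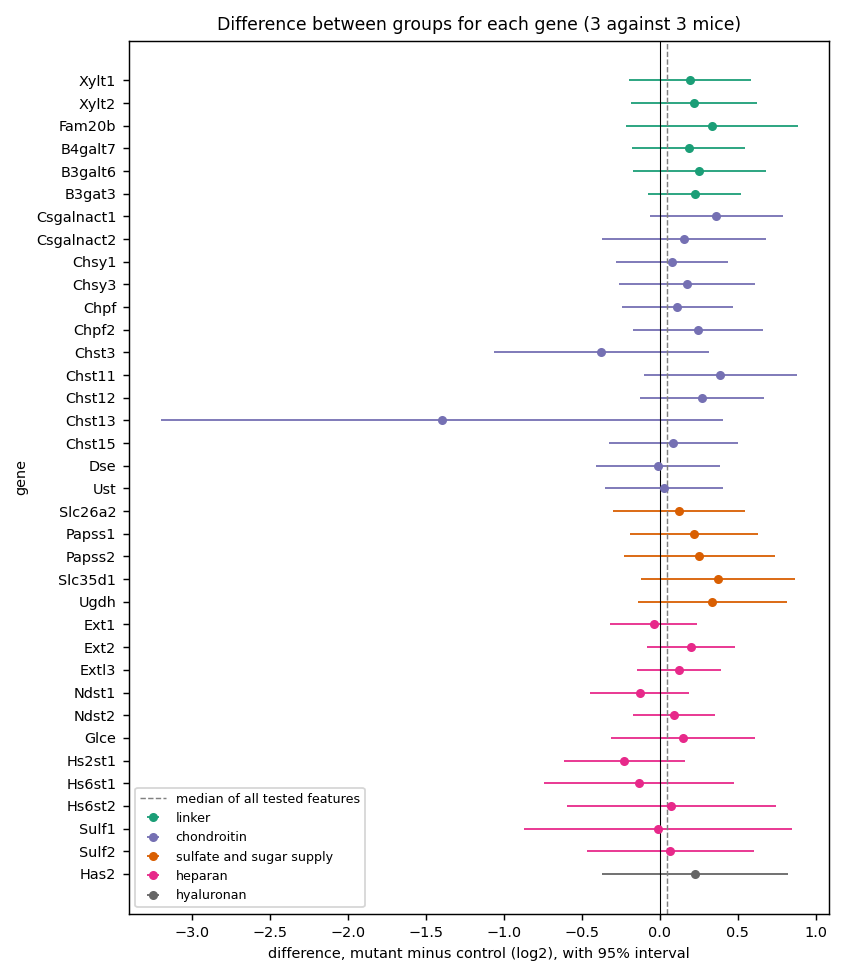
Difference in log2 signal (mutant minus control, horizontal axis) for the 36 measured genes, coloured by step, with 95% intervals from the limma fit of 3 against 3 mice; the dashed line is the median of all tested features. All intervals include 0, the linker and supply genes lie right of 0, and the heparan genes lie on both sides.

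Much of the spread among members lay between mice of the same genotype. Control 1 was the lowest of the 6 arrays for 21 of 36 members (58.3%), against 34.6% of all features. Mutant 2 was the highest array for 22 of 36 (61.1%), against 38.0% of all features. The heparan genes differed in this, with control 1 the lowest array for 3 of 11 and the highest for 3. Mutant 2 was the highest for 5 of them. The chondrocyte marker score, the mean over markers of log2 signal minus the gene's mean over all arrays, was also lowest on control 1, at -0.35, and highest on mutant 2, at 0.41. The other 4 arrays lay between -0.06 and 0.03. Neutrophil and erythroid markers were highest on control 1, with scores of 1.84 and 1.53. They were also high on control 2, at 1.06 and 0.76, and below 0 on control 3 and on every mutant. Macrophage, osteoclast and endothelial markers were lowest on mutant 2, at -1.54, -1.48 and -1.17. Skeletal muscle markers ran from 2.24 on control 1 to -2.38 on mutant 2, and adipocyte markers were lowest on mutant 2, at -2.00. Without control 1 and mutant 2, 21 of 36 members were above 0 and their median was 0.018, against -0.023 over all features. These 2 arrays were picked after seeing the data. They were the lowest and the highest array for most members, so a smaller difference was largely built in. With the chondrocyte score as a covariate, also added after seeing the data, 18 of 36 were above 0. The median was then 0.011, against -0.025 over all features. Without mutant 2 alone the median was 0.087. The chondrocyte score itself set control 1 and mutant 2 apart, so a smaller difference was largely built into the covariate fit too. The part of cell content in the members' values was not tested.

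**Figure D2:**
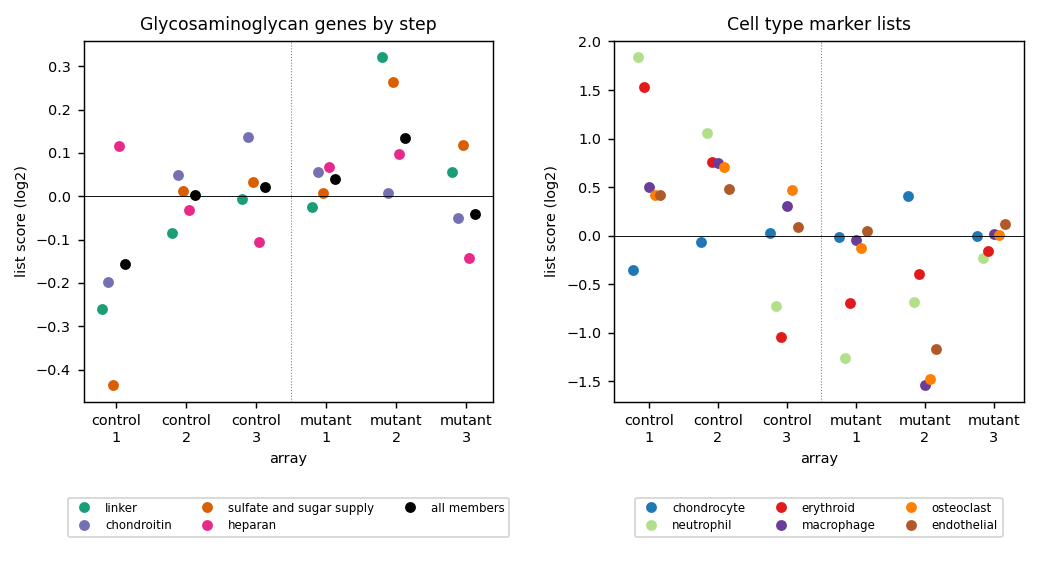
List scores (log2) on each array for the glycosaminoglycan genes by step (left) and for cell type markers (right); each point is 1 array and the dotted line separates control from mutant mice. Control 1 has the lowest linker, supply and chondrocyte scores, and mutant 2 the highest. The heparan score is highest on control 1, at 0.11. The chondroitin score is lowest on control 1 and highest on control 3, at 0.14.

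Promoter sequences are shown for 4 members the results turn on: B3gat3 and Ugdh, whose groups did not overlap, and the sulfotransferases Chst11 and Chst3, whose differences had opposite signs. Each is the 250 bases upstream of the annotated start, from RefSeq on the build GRCm38.p6, 5′ to 3′ on the gene's strand. Capitals mark the GC box GGGCGG, the CCAAT box CCAAT, and the SOX core ACAAAG or ACAATG, each searched on both strands.
B3gat3, chr19:8920143-8920392, plus strand: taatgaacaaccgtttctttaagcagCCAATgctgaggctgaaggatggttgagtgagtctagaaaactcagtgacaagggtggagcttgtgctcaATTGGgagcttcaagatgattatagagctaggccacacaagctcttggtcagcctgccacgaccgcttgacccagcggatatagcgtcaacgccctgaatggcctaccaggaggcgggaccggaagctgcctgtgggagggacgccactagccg
Ugdh, chr5:65435843-65436092, minus strand: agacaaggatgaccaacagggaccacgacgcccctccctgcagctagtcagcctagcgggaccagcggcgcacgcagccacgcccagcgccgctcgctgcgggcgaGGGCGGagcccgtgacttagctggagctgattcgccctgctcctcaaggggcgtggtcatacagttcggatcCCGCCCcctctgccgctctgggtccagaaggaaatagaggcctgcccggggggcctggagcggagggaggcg
Chst11, chr10:82985247-82985496, plus strand: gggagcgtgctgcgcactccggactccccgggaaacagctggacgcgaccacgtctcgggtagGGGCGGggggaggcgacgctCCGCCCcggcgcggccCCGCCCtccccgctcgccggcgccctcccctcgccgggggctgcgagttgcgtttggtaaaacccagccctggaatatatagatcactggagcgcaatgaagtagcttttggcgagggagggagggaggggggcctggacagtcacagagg
Chst3, chr10:60219261-60219510, minus strand: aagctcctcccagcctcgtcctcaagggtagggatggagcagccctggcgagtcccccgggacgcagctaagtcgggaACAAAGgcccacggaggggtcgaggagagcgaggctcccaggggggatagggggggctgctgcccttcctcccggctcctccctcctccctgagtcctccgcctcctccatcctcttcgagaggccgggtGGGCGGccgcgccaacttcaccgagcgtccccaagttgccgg
The B3gat3 window held 2 CCAAT boxes and 0 GC boxes, and the Ugdh window 2 GC boxes. The Chst11 window held 3 GC boxes and 0 SOX cores, and the Chst3 window held 1 of each. The table gave such windows for 27 of the 37 members, 34 windows in all. A GC box was present in 22 of these 34, against 32.7% of all 32851 windows in the table, which include those of noncoding genes. A CCAAT box was present in 14 of 34, against 33.8% of all windows, and a SOX core in 2 of 34, against 25.2%. A match is a run of letters and was not tested as a binding site. The SOX core letters do not contain the CCAAT letters.

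The linker genes, which build the shared stem of chondroitin and heparan sulfate, had differences above 0 in 6 of 6 cases, from 0.19 to 0.33, with a median of 0.22, where 60.0% of all features were above 0. None passed the test. The linker median was 0.13 without mutant 2 and 0.044 without control 1 and mutant 2, when 5 of 6 were above 0. Xylt1 and Xylt2 encode the xylosyltransferases that attach the first sugar to the core protein. Xylt1 read -2.22, -1.84 and -1.73 in controls and -1.84, -1.73 and -1.63 in mutants. Control 1 stood below the rest and the groups overlapped, with a difference of 0.19 (95% interval -0.20 to 0.58, SE 0.16) that was 0.05 without control 1. Xylt2 read 2.43, 2.73 and 2.68 in controls and 2.61, 3.10 and 2.79 in mutants. Mutant 2 was the highest and mutant 1 lay within the controls' range, for a difference of 0.22 (SE 0.17) that was 0.085 without mutant 2 and 0.13 without control 1. A second, dimmer Xylt2 probe gave 0.10.

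Fam20b, the kinase that phosphorylates the linker xylose, read 1.22, 1.502 and 1.72 in controls and 1.45, 2.20 and 1.79 in mutants. Its difference of 0.33 (95% interval -0.22 to 0.88, SE 0.23) was 0.14 without mutant 2 and 0.01 without control 1 and mutant 2. B4galt7 and B3galt6 add the galactoses of the linker. B4galt7 read 0.04, 0.15 and 0.38 in controls and 0.19, 0.52 and 0.43 in mutants, with overlap and a difference of 0.19 (SE 0.15). B3galt6 read -0.75, -0.78 and -0.66 in controls and -0.43, -0.20 and -0.81 in mutants. Mutants 1 and 2 were above all controls and mutant 3 was below them, so its difference of 0.25 (SE 0.18) was 0.42 without mutant 3.

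B3gat3, which closes the linker with glucuronic acid, read 0.80, 0.81 and 0.67 in controls and 0.96, 1.12 and 0.86 in mutants. Every mutant lay above every control. Controls averaged 0.76 ± 0.08 and mutants 0.98 ± 0.13 (SD, n = 3 each), a difference of 0.22 (95% interval -0.08 to 0.52, SE 0.12) or 1.17-fold. The limma adjusted p was 0.987. Without control 1 and mutant 2 the difference was 0.17, the highest of the 6 linker genes.

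**Figure D3:**
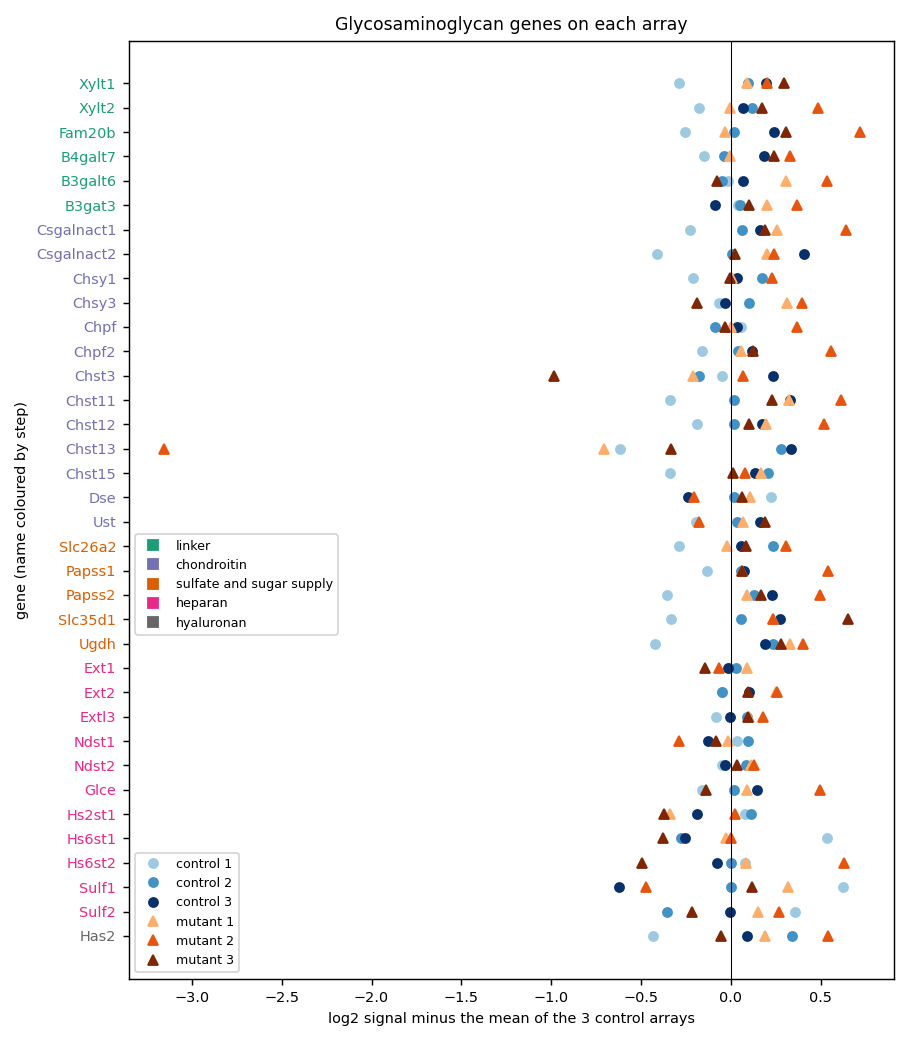
Log2 signal of each measured gene on each array, minus that gene's mean over the 3 controls (horizontal axis); circles are controls, triangles mutants, and gene names are coloured by step. Control 1 (palest circle) lies lowest for 21 genes and mutant 2 (orange triangle) highest for 22; Chst13 on mutant 2 and Chst3 on mutant 3 stand apart to the left.

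Of the 13 chondroitin genes 10 were above 0 and 3 below, with a median of 0.11, and 0 passed the test. Chain growth starts with Csgalnact1 and Csgalnact2, which add the first N-acetylgalactosamine and so commit the linker to chondroitin. Csgalnact1 read 3.27, 3.56 and 3.66 in controls and 3.76, 4.14 and 3.69 in mutants. All mutants were above all controls, but mutant 3 exceeded control 3 only narrowly. Controls averaged 3.50 ± 0.20 and mutants 3.86 ± 0.24 (SD, n = 3 each), a difference of 0.36 (95% interval -0.06 to 0.79, SE 0.18), or 1.29-fold. It was 0.25 without control 1, 0.22 without mutant 2 and 0.11 without both arrays. Csgalnact2 read 2.08, 2.49 and 2.89 in controls and 2.69, 2.72 and 2.51 in mutants. The mutants lay inside the controls' range, and the difference was 0.15 (SE 0.22).

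The polymerase subunits Chsy1, Chsy3, Chpf and Chpf2 lengthen the chondroitin chain. Chsy1 read 4.16, 4.54 and 4.41 in controls and 4.38, 4.60 and 4.37 in mutants, a difference of 0.08 (SE 0.15), and a second probe gave 0.07. Chsy3 read -1.45, -1.28 and -1.42 in controls and -1.07, -0.99 and -1.57 in mutants, with mutant 3 the lowest of all 6 arrays and a difference of 0.17 (SE 0.18). Chpf read 4.88, 4.74 and 4.86 in controls and 4.83, 5.19 and 4.79 in mutants. Only mutant 2 lay outside the controls' range, and the difference of 0.11 (SE 0.15) was -0.02 without it. Chpf2 read 4.25, 4.45 and 4.52 in controls and 4.46, 4.96 and 4.53 in mutants, a difference of 0.25 (SE 0.17) that was 0.09 without mutant 2. Its second probe gave 0.24.

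Among the members, sulfation of chondroitin at carbon 4 of N-acetylgalactosamine is the work of Chst11, Chst12 and Chst13, and at carbon 6 of Chst3. Chst11 read 3.24, 3.60 and 3.91 in controls and 3.91, 4.20 and 3.81 in mutants. Controls 1 and 2 lay below all mutants while control 3 lay among them. Controls averaged 3.58 ± 0.33 and mutants 3.97 ± 0.20 (SD, n = 3 each), a difference of 0.39 (95% interval -0.11 to 0.88, SE 0.20). This was the highest of the 36 members, and without control 1 and mutant 2 it was 0.10. Chst12 read 2.54, 2.74 and 2.90 in controls and 2.92, 3.25 and 2.83 in mutants, with a difference of 0.27 (SE 0.16). Chst3 read 0.43, 0.30 and 0.72 in controls and 0.27, 0.55 and -0.50 in mutants. Mutant 3 was far below the other arrays, mutant 1 was just below control 2, and mutant 2 lay among the controls. Its difference was -0.38 (95% interval -1.07 to 0.31, SE 0.29), and -0.07 without mutant 3.

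Because both kinds of enzyme act on the same sugar, the signal of Chst11 was set against that of Chst3 within each array. The log2 difference between the 2 probes, which has meaning only as a change between arrays, was 2.81, 3.29 and 3.19 in controls and 3.63, 3.65 and 4.32 in mutants. Every mutant was above every control. Controls averaged 3.10 ± 0.26 and mutants 3.86 ± 0.39 (SD, n = 3 each), which is 0.76 higher in mutants. The pair was chosen with earlier results known and joins the highest member difference to the lowest but for Chst13, so the separation is a description and no test is given for it. Chst12 and Chst13 were not set against Chst3. Leaving out any 1 array gave values from 0.54, without mutant 3, to 0.88, without mutant 1. The same calculation for the PAPS synthases, Papss2 minus Papss1, gave a mutant minus control value of 0.03 (exact two-sided permutation p 0.9, with 3 ratios computed), and -0.08 without control 1. For the heparan sulfatases, Sulf1 minus Sulf2, it gave -0.08 (exact permutation p 0.6, and 0.9 adjusted over the 3 ratios). The sign of this value turned, at 0.05 to 0.25, when control 1, control 2 or mutant 2 was left out. With 3 against 3 arrays the exact permutation test cannot give a p below 0.1, so neither ratio could have passed 0.05.

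**Figure D4:**
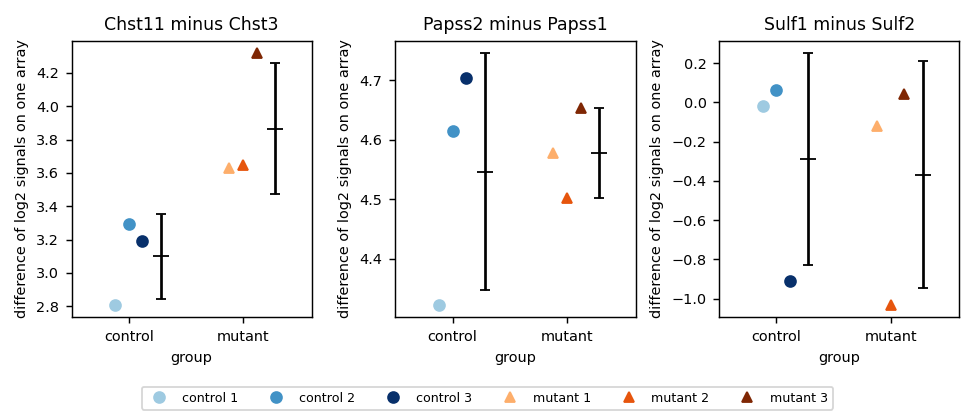
Difference of the log2 signals of 2 probes on the same array (vertical axis) for 3 pairs of enzymes in control and mutant mice; points are arrays and black bars are mean ± SD (n = 3). The groups separate for Chst11 minus Chst3, at 2.81 to 3.29 against 3.63 to 4.32, and overlap for the other pairs.

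The remaining chondroitin sulfotransferases and the epimerase had differences near 0, apart from 1 dim probe. Chst13, the last of the 4-O-sulfotransferases, read -3.75, -2.85 and -2.80 in controls and -3.84, -6.29 and -3.47 in mutants. Mutant 2 was not above background for this probe. The difference of -1.40 (95% interval -3.20 to 0.40, SE 0.75) was -0.52 without mutant 2, -0.45 with normexp and percentile scaling and -0.41 with normexp and quantile scaling. A second Chst13 probe gave -0.04. Chst15, which adds a further sulfate to sulfated chondroitin, read 0.00, 0.55 and 0.47 in controls and 0.51, 0.42 and 0.36 in mutants, a difference of 0.09 (SE 0.17). Dse, the epimerase that turns chondroitin into dermatan, read -0.65, -0.86 and -1.11 in controls and -0.77, -1.08 and -0.81 in mutants, a difference of -0.01 (95% interval -0.41 to 0.39, SE 0.17). Ust, which sulfates the uronic acid of these chains, had a difference of 0.02 (95% interval -0.35 to 0.40, SE 0.16), with controls from -1.68 to -1.33 and mutants from -1.67 to -1.30.

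The 5 genes that supply sulfate and nucleotide sugars were all above 0, from 0.12 to 0.37 with a median of 0.25, and control 1 was the lowest array for each of them. None passed the test. Without control 1 and mutant 2 their median was -0.0048, with 2 of 5 above 0. Slc26a2, the sulfate transporter of the chondrocyte membrane, read 0.97, 1.49 and 1.31 in controls and 1.23, 1.56 and 1.34 in mutants. The groups overlapped, and the difference of 0.12 (SE 0.18) was -0.02 without control 1. Papss1 and Papss2 make the sulfate donor PAPS, Papss2 being the form known for its role in cartilage. Papss2 read 6.47, 6.95 and 7.06 in controls and 6.92, 7.32 and 6.995 in mutants. Its difference of 0.25 (95% interval -0.23 to 0.74, SE 0.20) was 0.07 without control 1 and -0.05 without control 1 and mutant 2. Papss1 read 2.15, 2.34 and 2.35 in controls and 2.34, 2.82 and 2.34 in mutants, so that only mutant 2 stood above the controls, with a difference of 0.22 (SE 0.17) that was 0.06 without mutant 2.

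Slc35d1, which carries the chondroitin precursors UDP-glucuronic acid and UDP-N-acetylgalactosamine into the endoplasmic reticulum, read 1.65, 2.04 and 2.26 in controls and 2.22, 2.22 and 2.64 in mutants. Its highest array was mutant 3. The difference of 0.37 (95% interval -0.12 to 0.87, SE 0.21), or 1.30-fold, was 0.21 without control 1, 0.23 without mutant 3 and 0.28 without control 1 and mutant 2. Ugdh, the dehydrogenase that makes UDP-glucuronic acid, read 4.57, 5.23 and 5.19 in controls and 5.33, 5.40 and 5.28 in mutants. All mutants were above all controls, yet controls 2 and 3 were close to the mutants and control 1 stood well below. Controls averaged 4.998 ± 0.37 and mutants 5.33 ± 0.06 (SD, n = 3 each). The difference of 0.34 (95% interval -0.14 to 0.81, SE 0.20) was 0.12 without control 1.

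Heparan genes were divided, with 6 above 0 and 5 below and a median of 0.07, and 0 of the 11 passed the test. Extl3, which starts the heparan chain on the linker, read 3.10, 3.28 and 3.18 in controls and 3.29, 3.36 and 3.28 in mutants. The groups did not overlap, but control 2 and mutant 3 were nearly equal. The difference was 0.12 (95% interval -0.14 to 0.39, SE 0.11). Ext1 and Ext2 form the heparan polymerase. Ext1 read 1.26, 1.30 and 1.26 in controls and 1.37, 1.21 and 1.13 in mutants, a difference of -0.04 (SE 0.12). Ext2 read -1.78, -1.78 and -1.63 in controls and -1.48, -1.47 and -1.64 in mutants. Mutants 1 and 2 were above the controls and mutant 3 was level with control 3, for a difference of 0.20 (95% interval -0.08 to 0.48, SE 0.12).

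The enzymes that modify heparan sulfate lay on both sides of 0. Ndst1 and Ndst2 replace acetyl by sulfate on glucosamine. Ndst1 read 1.03, 1.09 and 0.87 in controls and 0.98, 0.71 and 0.92 in mutants, a difference of -0.13 (SE 0.13), while its 2 dimmer probes gave 0.12 and -0.28. The 3 probes of this gene thus did not share a sign. Ndst2 had a difference of 0.09 (SE 0.11), with controls from 0.77 to 0.90 and mutants from 0.85 to 0.94. Glce, the epimerase that forms iduronic acid, read 2.34, 2.52 and 2.65 in controls and 2.59, 3.00 and 2.37 in mutants, and its difference of 0.15 (SE 0.19) was -0.02 without mutant 2. Hs2st1, the uronic acid 2-O-sulfotransferase, read -0.61, -0.57 and -0.87 in controls and -1.02, -0.66 and -1.06 in mutants. Mutants 1 and 3 were below all controls and mutant 2 was among them, a difference of -0.23 (95% interval -0.62 to 0.16, SE 0.16). Without control 1 and mutant 2 it was -0.32.

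Hs6st1 and Hs6st2 add sulfate at carbon 6 of glucosamine. Hs6st1 read -1.39, -2.20 and -2.18 in controls and -1.95, -1.93 and -2.30 in mutants. Control 1 was the highest array, and the difference of -0.13 (SE 0.25) was 0.13 without it. Hs6st2 read -0.72, -0.79 and -0.87 in controls and -0.71, -0.16 and -1.29 in mutants, so that the mutants were the highest and the lowest arrays, with a difference of 0.07 (SE 0.28). Sulf1 and Sulf2 remove these sulfates outside the cell. Sulf1 read 2.68, 2.05 and 1.43 in controls and 2.37, 1.58 and 2.17 in mutants, with a control SD of 0.62 and a difference of -0.01 (95% interval -0.87 to 0.84, SE 0.36). Its second probe gave 0.04. Sulf2 read 2.70, 1.99 and 2.34 in controls and 2.49, 2.61 and 2.13 in mutants, a difference of 0.07 (SE 0.22). Both sulfatases were highest on control 1, where the chondrocyte marker score was lowest, and the part of cell content in this was not tested.

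Hyaluronan, the chain made at the cell surface without a core protein or sulfate, was represented by Has2 and Has3. Has2, the main synthase of growing cartilage, read 1.58, 2.35 and 2.10 in controls and 2.20, 2.55 and 1.96 in mutants. The groups overlapped, and the difference of 0.22 (95% interval -0.37 to 0.82, SE 0.25) was 0.01 without control 1. Has3 was well above background on 0 of 6 arrays and was not tested, so no fold is given.

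Other genes of the pathway, from 4 further lists, also gave 0 calls at an adjusted p below 0.05. Of 20 measured genes (of 22 listed) for sugar and sulfate supply and Golgi transport, 20 were above 0 with a median of 0.20, against 60.0% and 0.04 over all features. Of these 20, 0 had an unadjusted p below 0.05, against 3.43% of all features. Slc35a2, the Golgi carrier of UDP-galactose, had the lowest p among them, with a log2 difference of 0.23 (SE 0.14). Control 1 was the lowest array for 15 of these 20 and mutant 2 the highest for 15. Of 19 measured other chain-building and sulfating enzymes (of 26 listed), 11 were above 0 and 1 had an unadjusted p below 0.05, against the same 3.43%. This was Chst2, a sulfotransferase of keratan sulfate and other glycans, which read -0.48, -0.25 and -0.55 in controls and -0.71, -1.02 and -0.90 in mutants. All mutants were below all controls, a difference of -0.45 (SE 0.14, limma adjusted p 0.987). Chst7, a further sulfotransferase of this list, read 0.13, 0.15 and 0.003 in controls and -0.20, -1.44 and -0.10 in mutants. Its groups did not overlap either, with mutants lower and a difference of -0.67 (SE 0.36). It was not part of the comparison of Chst11 with Chst3.

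In the list for breakdown, 16 of 26 measured genes (of 27 listed) were below 0, with a median of -0.05. The list also holds hyaluronan receptors, all of them below 0, so its counts do not describe degrading enzymes alone. Above 0 were 38.5% of the 26 genes, against 60.0% of all features, whose median was 0.04. Of the 26, 3 had an unadjusted p below 0.05, against 3.43% of all features. All 3 were lower in mutants, as were 1.88% of all features at that p. Arsb, the lysosomal sulfatase that removes the 4-O-sulfate of chondroitin and dermatan, read -2.07, -2.09 and -2.04 in controls and -2.31, -2.27 and -2.48 in mutants, a difference of -0.29 (SE 0.11). All mutants were below all controls. Stab2, a hyaluronan scavenger receptor of sinusoidal endothelium, read -1.51, -1.08 and -1.91 in controls and -2.74, -3.23 and -2.19 in mutants. The groups did not overlap, and the difference was -1.22 (SE 0.32). Stab2 also belongs to the endothelial markers, whose score was 0.42, 0.48 and 0.09 in controls and 0.05, -1.17 and 0.12 in mutants. The part of cell content in its difference was not tested.

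Among 31 measured core and link proteins (of 34 listed), 21 (67.7%) were above 0 with a median of 0.07, against 60.0% and 0.04 over all features. Of the 31, 2 had an unadjusted p below 0.05, 1 higher and 1 lower, against 3.43% of all features. Hspg2, the heparan sulfate proteoglycan perlecan, read 5.94, 6.25 and 6.27 in controls and 6.37, 6.64 and 6.51 in mutants, with no overlap and a difference of 0.35 (SE 0.15). Srgn, the proteoglycan of blood cell granules, read 0.53, 0.76 and 0.12 in controls and -0.26, -1.51 and -0.36 in mutants. The groups did not overlap, with a difference of -1.18 (SE 0.36). Its level was lowest on mutant 2, as were the macrophage markers. The core protein gene Acan, the carrier of most cartilage chondroitin sulfate, read 6.92, 7.36 and 7.496 in controls and 7.45, 7.89 and 7.51 in mutants. It was lowest on control 1 and highest on mutant 2, like Chst11, Csgalnact1, Papss2 and Ugdh.

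**Figure D5:**
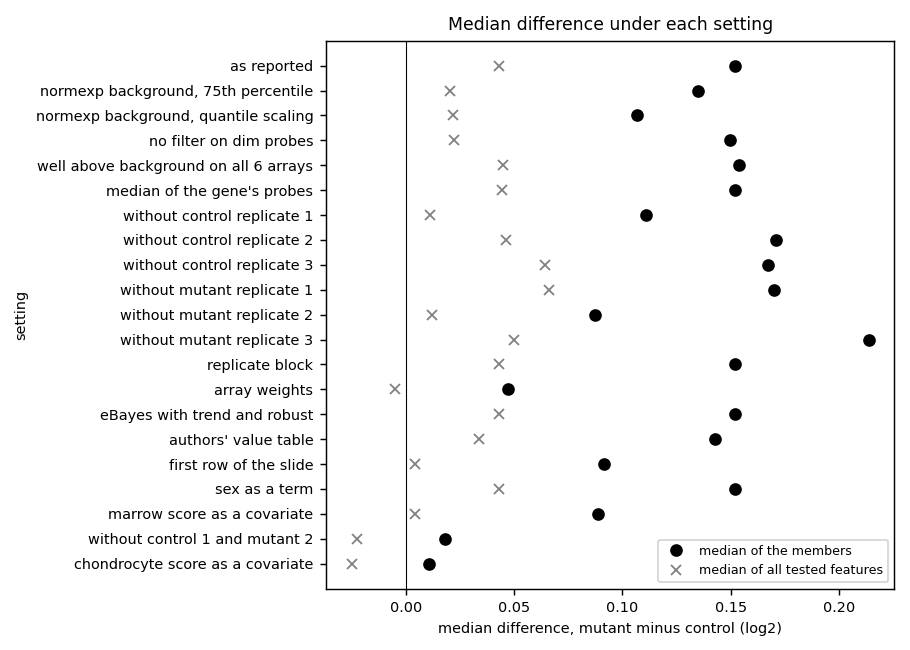
Median difference (mutant minus control, log2, horizontal axis) of the measured members (dots) and of all tested features (crosses) under each processing setting (vertical axis, the first being the reported one). The members' median runs from 0.011 to 0.21 and lies nearest 0 with the chondrocyte score as a covariate.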

How the data were processed

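RNA from tibial cartilage of 3 control and 3 mutant mice (100 ng each) was labelled with Cy3 per the labels' protocols, although the label field names Cy5, and the file headers record 1 channel. Spots were read with Agilent Feature Extraction 10.7.1.1 (submitters' processing notes), and the authors deposited them as background-subtracted intensity, not scaled between arrays. The value table the authors deposited holds, judging from its values, a ratio of that intensity to the 75th percentile of the array, with column medians of 0.094 to 0.104; the sources used here do not describe its making.

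Accessions of 55681 probes were matched without version to RefSeq genes of GRCm38.p6, which named 27656 probes. The array design is on mm9 per the file headers, so no probe coordinates are given. Outlier spots were dropped. The log2 of the deposited processed signal minus the log2 of the array's 75th percentile over non-control spots was averaged per probe. Each gene took the probe with the highest mean signal, and features well above background on at least 3 of 6 arrays were kept, 25480 in all. Mutants and controls were compared by lmFit and eBayes of limma 3.58.1 under R 4.3.3 (two-sided, 4 residual and 2.42 prior degrees of freedom), with Benjamini-Hochberg adjustment over all features. Ratios within arrays of Papss2 to Papss1 and Sulf1 to Sulf2 used exact permutation tests. The fit was tested on simulated data: of 25480 features it recovered 40 of 100 changed by 1 on the log2 scale and 86 of 100 changed by 2, with 6 false calls. Arrays number 3 per group, which limits the precision. Replicates are separate mice per the series' design text.

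The members, gene lists, ratios and alternatives were chosen with earlier results of these data known. Every member is accounted for. Of each other pathway list up to 4 genes with the smallest unadjusted p could be named, beside Adam10 as the check of the labels. The values of 1 breakdown gene are not reported here. Cell type marker lists served to describe the cell content of arrays. The chondrocyte score and a marrow score (neutrophil, erythroid and B lymphocyte markers) also entered alternative fits as covariates. Alternatives tried were normexp (offset 50) followed by percentile or quantile scaling, other filters on dim probes, the median of a gene's probes, each array left out, the replicate number as a block, array weights, eBayes with trend and robust, the authors' table, the first slide row, sex from Xist against Ddx3y as a term, and a marrow marker score as a covariate. The files lack the mean spot signal, so normexp used the median spot signal. Leaving out control 1 with mutant 2, and a chondrocyte score as a covariate, were added after seeing the data.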

Additional observations from a re-analysis of the deposited data

How the results depend on the processing

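In all 20 alternatives 0 members were called, and the smallest adjusted p of a member was 0.25, for Hs2st1 with array weights (limma). With the number of the mouse as a replicate block, the median difference was 0.15, 28 members were above 0 and 0 were called. Deviations of same-numbered mice from their group means correlated at 0.21, 0.059 and -0.16. With 3 mice per group these correlations cannot decide whether the numbers pair the mice, and the labels do not state it. The median member difference was 0.087 to 0.21 with 1 array left out, 0.047 with array weights, 0.018 without control 1 and mutant 2, and 0.011 with the chondrocyte score, where 18 members were above 0; with 1 array left out 26 to 28 were. Of 719 single-gene alternatives 645 kept their sign and 74 turned it, and 15 members never turned; the cause was not tested. With array weights these turned: Xylt2 -0.029, Chsy1 -0.10, Chst15 -0.020, Dse 0.10, Slc26a2 -0.15, Ext1 0.026, Hs6st1 0.13, Sulf1 0.32, Has2 -0.069. With the chondrocyte score as a covariate these turned: Xylt2 -0.0090, Fam20b -0.015, Csgalnact2 -0.10, Chsy1 -0.092, Chpf -0.016, Chpf2 -0.0046, Chst15 -0.057, Dse 0.21, Slc26a2 -0.10, Papss1 -0.017, Papss2 -0.050, Glce -0.12, Hs6st1 0.031, Hs6st2 -0.20, Sulf1 0.56, Has2 -0.13. The first slide row held all controls but only mutant 1 of the mutants. On that row alone these turned: Xylt2 -0.0033, Fam20b -0.031, B4galt7 -0.0054, Chpf -0.0017, Dse 0.11, Slc26a2 -0.023, Ext1 0.091, Sulf1 0.32. With the marrow score as a covariate these turned: Csgalnact2 -0.20, Chst15 -0.076, Dse 0.17, Ust -0.092, Glce -0.0030, Hs6st1 0.075, Sulf1 0.47. With the median of a gene's probes these turned: Ndst1 0.12, Sulf1 0.013. With normexp and quantile scaling these turned: Chsy1 -0.0094, Dse 0.011, Papss2 minus Papss1 -0.055. With normexp and percentile scaling these turned: Papss2 minus Papss1 -0.0084. Without control 1 and mutant 2 these turned: Xylt2 -0.0051, Csgalnact2 -0.093, Chsy1 -0.10, Chst15 -0.080, Dse 0.20, Slc26a2 -0.11, Papss1 -0.0048, Papss2 -0.048, Glce -0.11, Hs6st1 0.066, Hs6st2 -0.17, Sulf1 0.53, Has2 -0.15. With 1 array left out, the sign turned within these ranges: Csgalnact2 -0.051 to 0.36, Chsy1 -0.027 to 0.17, Chst15 -0.083 to 0.19, Dse -0.13 to 0.10, Ust -0.073 to 0.13, Slc26a2 -0.021 to 0.24, Hs6st1 -0.27 to 0.13, Sulf1 -0.32 to 0.30, Sulf2 -0.11 to 0.25, Chpf -0.018 to 0.18, Glce -0.024 to 0.29, Hs6st2 -0.21 to 0.36, Ext1 -0.11 to 0.012, Papss2 minus Papss1 -0.081 to 0.11, Sulf1 minus Sulf2 -0.39 to 0.25.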
